A study of Mus musculus with 24 samples.

Results

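The neutrophil-attracting ELR CXC chemokines are small secreted proteins that share a glutamate-leucine-arginine motif ahead of the first cysteines. The 4 genes described here, Cxcl1, Cxcl2, Cxcl3 and Cxcl5, were chosen by name from this family, to which Ppbp and Cxcl15 also belong, and they are 4 of the 55291 gene lines counted in each library. Each was among the 16258 genes with enough reads to be tested. Their mRNA was measured by sequencing in 24 libraries of cultured mouse pulmonary fibroblasts, 3 for each of 8 conditions. WT cells and cells labelled TLR4-/- were each given PBS, 1 μg/ml rmCIRP (recombinant murine cold-inducible RNA-binding protein), 2 ng/ml rmTGF-β1 (recombinant murine transforming growth factor β1) or both for 24 h. The lungs came from C57BL/6 mice aged 4 to 8 weeks, the fibroblasts of a group came from a pool of 3 to 4 lungs, and cells were used at passages 3 to 6 after a night in reduced-serum medium. TLR4-/- mice lack the receptor for endotoxin, and that deletion is the only difference between the strains that the labels give. The labels do not say whether the 3 libraries of a condition came from separate cultures, so p-values measure the spread between these libraries, which may be technical.

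ELR CXC chemokines bind the receptors CXCR1 and CXCR2 on neutrophils and draw them out of the blood towards the source. In the lung they are made by macrophages, epithelial cells and stromal cells such as fibroblasts, usually within hours of a bacterial or danger signal, and NF-κB is the best known of the transcription factors that switch their genes on. Their mRNAs decay quickly through AU-rich elements, so that their level follows the signal closely. Cxcl1 (KC) and Cxcl2 (MIP-2) are the most studied mouse ligands, Cxcl3 is a close relative of both, and Cxcl5 (LIX) is best known from epithelial and stromal cells.

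In the RefSeq annotation of the mouse genome the 4 genes lay in 1 cluster of 7 protein-coding genes on chromosome 5, in the order Cxcl5, Ppbp, Pf4, Cxcl3, Cxcl15, Cxcl1 and Cxcl2. RefSeq promoter sequences were at hand for 3 of the 4 genes and for the 3 other genes of the cluster. The last 120 bases before the RefSeq start of Cxcl1, Cxcl2 and Cxcl3 are shown, because these 3 windows share a stretch that holds a binding motif of NF-κB. They are from build GRCm38.p6, plus strand, 5′ to 3′, and capitals mark the shared stretch GGGAATTTCCC and the TATA-like motif ATAAAA.
Cxcl1, chr5:90891125-90891244: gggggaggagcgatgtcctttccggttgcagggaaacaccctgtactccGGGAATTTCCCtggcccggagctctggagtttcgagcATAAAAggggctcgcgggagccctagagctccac
Cxcl2, chr5:90903779-90903898: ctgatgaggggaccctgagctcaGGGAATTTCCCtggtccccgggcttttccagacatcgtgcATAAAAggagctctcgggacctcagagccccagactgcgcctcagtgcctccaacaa
Cxcl3, chr5:90785981-90786100: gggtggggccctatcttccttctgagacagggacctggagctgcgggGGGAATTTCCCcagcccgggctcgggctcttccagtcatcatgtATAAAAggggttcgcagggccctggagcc
The 11 letters GGGAATTTCCC are the longest stretch that the 250 bases before the start have in common in these 3 genes. Searched on both strands, the stretch occurred once in each, beginning 71 bases before the start of Cxcl1, 97 before that of Cxcl2 and 73 before that of Cxcl3. It was found in 14 of 27025 genes (0.0518%) and in 14 of 32851 windows of that length (0.0426%), and not before Ppbp, Pf4 or Cxcl15. ATAAAA, searched on the strand of the gene, occurred in 10.2% of all windows and once in each of the 3 members. The AP-1 motif TGANTCA, searched on both strands, occurred in 6.75% of windows and in none of the 3 members, and in Ppbp alone among the 3 other cluster genes. The motifs do not overlap in these windows, and they were chosen after the sequences had been seen. Of the other 11 genes that hold the 11 letters, 4 were tested. With rmCIRP in WT cells none of the 4 rose and 1 fell, Il16 (log2 fold change -0.80 ± 0.22 SE, named after its value was seen). Without its last letter the stretch, GGGAATTTCC, was found in 28 genes (0.104%), and of the other 25 of them 12 were tested, of which 3 rose and 2 fell, with a median log2 fold change of 0.12 beside -0.02 over all genes tested. The 3 that rose were Gbp5 (6.82 ± 0.25), Nfkbia (1.62 ± 0.099) and Tufm (0.11 ± 0.043), all named after their values were seen. Of all genes tested, 19.8% rose in this comparison and 24.1% fell. No test was run on these small counts, so nothing is read from them. A match is a description of letters that was not tied to binding in these data.

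Before the chemokines, the libraries were checked against their labels. The level of Tlr4 mRNA was 630 to 802 normalized counts in the 12 WT libraries and 702 to 941 in the 12 libraries labelled TLR4-/-. It was thus not lower under the knockout label, and in each of the 4 treatments it was slightly higher, by a log2 difference of 0.23 to 0.30. Which part of the gene was deleted, and whether these reads lie in it, was not examined, so the label stands as given. Fibroblast markers (10 genes such as Col1a1 and Pdgfra) summed to 681665 to 903950 normalized counts in each library, so the markers of the labelled cell type were present. Macrophage markers (13 genes such as Lyz2 and Csf1r) were present in every library, at sums of 78386 to 99113 in WT and 333578 to 431866 under the TLR4-/- label. All 13 were higher under that label with PBS, beside 23.2% of all genes tested, with a median log2 difference of 2.19. Macrophages are known producers of ELR chemokines. The part of these cells in the differences between genotypes was not tested, and a difference in cell makeup between the 2 pools and the deletion cannot be told apart from these data. Of 10 neutrophil markers 4 were tested, and their values are given beside the rmCIRP response. Ly6g had 2 reads at most in a library, and S100a9 was listed at 0 in all 24 although S100a8, whose protein pairs with that of S100a9, had 79 to 373 reads, so nothing was read from that 0. The third library labelled TLR4-/- with both agents stood apart from the others of its condition. Its chi-square per degree of freedom against them was 47.8 and 32.9. Next was the third library labelled TLR4-/- with rmTGF-β1, at 12.5 and 16.3 against the others of its condition. The remaining pairs of replicates had 2.58 to 7.33. Comparisons that involve the TLR4-/- label with both agents are given with and without the third library of that condition, as are the correlations over all libraries. In such bulk libraries, fewer cells that make a transcript and less of it in each cell cannot be told apart.

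The first question was whether rmCIRP raised the chemokines in WT fibroblasts. All 4 rose, Cxcl2 and Cxcl3 from the lowest levels to the steepest increases. In each of the 4, every rmCIRP library was above every PBS library, a separation that 50.8% of all genes tested had in this comparison in 1 direction or the other.

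Cxcl1 had 639, 1188 and 950 normalized counts (reads divided by a size factor for the library's depth) in the 3 WT libraries with PBS, and 17061, 17052 and 17921 with rmCIRP. The PBS libraries spread over a range of 1.86-fold, whereas those with rmCIRP lay within 1.05-fold of each other. The log2 fold change was 4.22 ± 0.40 (SE), an 18.7-fold rise, with an adjusted p of 1.92e-08 (edgeR quasi-likelihood test, Benjamini-Hochberg over all genes tested).
Cxcl2 had 127, 202 and 198 counts with PBS and 14534, 14354 and 15762 with rmCIRP. From a level well under that of Cxcl1 it rose to nearly the same number of reads. The log2 fold change was 6.40 ± 0.19, or 84.7-fold, with an adjusted p of 3.29e-17.
Cxcl3 had 90.5, 85.9 and 76.0 counts with PBS and 6603, 6179 and 6240 with rmCIRP. The log2 fold change of 6.23 ± 0.19 (74.9-fold, adjusted p = 5.43e-17) was close to that of Cxcl2, whose 95% interval of 6.02 to 6.79 overlapped the 5.84 to 6.61 of Cxcl3.
Cxcl5 had 638, 1099 and 840 counts with PBS and 7711, 6096 and 6868 with rmCIRP. It had the smallest log2 fold change of the 4, 3.00 ± 0.24 (8.00-fold, adjusted p = 1.21e-09), and its 95% interval of 2.50 to 3.50 lay below those of Cxcl2 and Cxcl3.

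Cell type markers moved in this comparison too. Of the 10 fibroblast markers 6 fell, 2 rose and 2 did not pass. Their summed levels were 807075 to 866295 normalized counts with PBS and 681665 to 726165 with rmCIRP. The summed neutrophil markers went from 164 to 196 normalized counts with PBS to 448 to 482 with rmCIRP, and 3 of the 4 tested were higher. These were S100a8 (132 ± 13.5 to 273 ± 23.6, SD, n = 3), Camp (9 to 14 reads per library to 39 to 66) and Csf3r, the receptor of G-CSF (24.7 ± 3.86 to 132 ± 8.62). Of the 10 neutrophil markers, 4 were at 0 in all 3 libraries with PBS and 4 in all 3 with rmCIRP. S100a9, from whose 0 nothing was read, was among them in both. Of the 13 macrophage markers 9 fell and 4 rose, with a median log2 fold change of -0.33. Their summed levels were 90889 to 99113 with PBS and 79769 to 85058 with rmCIRP. The 4 that rose were Cd14 (1569 ± 148 to 5122 ± 444), Fcgr1 (60.6 ± 2.83 to 292 ± 37.8), Adgre1 (2033 ± 171 to 4014 ± 107) and Ptprc (652 ± 54.2 to 967 ± 90.1). In this comparison 19.8% of all genes tested rose and 24.1% fell. The part of these cell types in the rise of the chemokines was not tested.

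These 4 calls stand beside a background of 19.8% of all genes tested that rose in this comparison. In the order of log2 fold changes among the 16258 genes, Cxcl2 was 30th, Cxcl3 34th, Cxcl1 93rd and Cxcl5 153rd from the top.

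**Figure D1:**
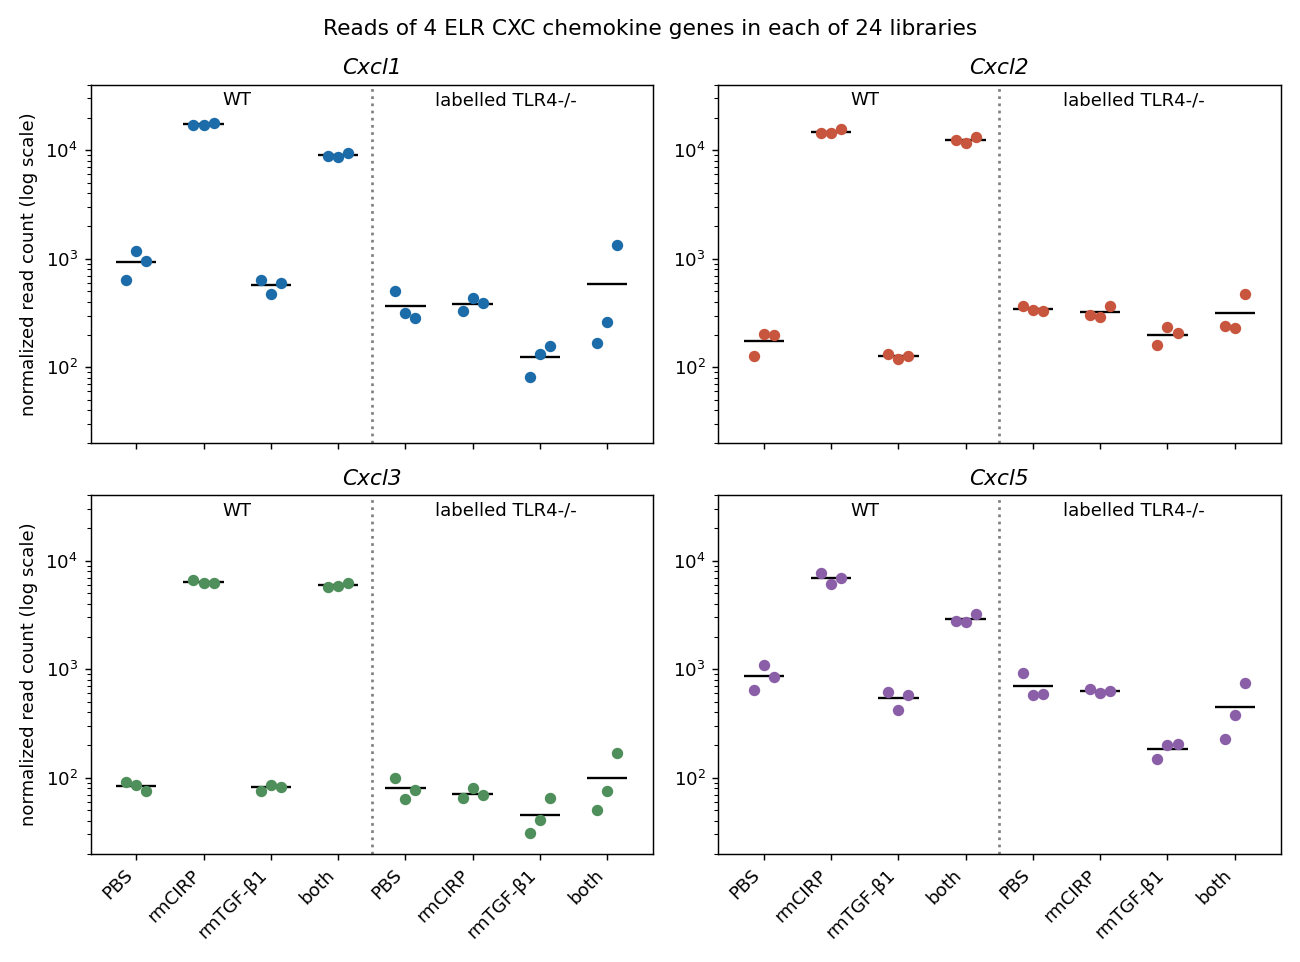
Normalized read count of each chemokine gene (vertical axis, log scale) in the 8 conditions (horizontal axis), with 1 point per library and a bar at the mean of 3 libraries. In WT cells the points with rmCIRP or both agents lie far above those with PBS or rmTGF-β1, whereas under the TLR4-/- label they stay low, apart from 1 library with both agents, at 1334 for Cxcl1.

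In cells labelled TLR4-/- none of the 4 genes passed the test for rmCIRP against PBS, and none of the 16258 genes did so with edgeR (0%), while 1136 had an unadjusted p under 0.05 and DESeq2 called 33. Cxcl1 had 500, 319 and 287 normalized counts with PBS and 333, 436 and 390 with rmCIRP, so that the groups overlapped. Cxcl2 had 367, 338 and 328 with PBS and 303, 289 and 369 with rmCIRP. Cxcl3 had 99.8, 63.6 and 76.7 with PBS and 64.9, 80.7 and 68.8 with rmCIRP, and Cxcl5 had 920, 584 and 592 with PBS and 652, 608 and 623 with rmCIRP. In each of these genes the libraries of the 2 treatments interleaved. The log2 fold changes were 0.07 for Cxcl1 (95% interval -0.91 to 1.06), -0.10 for Cxcl2 (-0.50 to 0.30), -0.16 for Cxcl3 (-0.78 to 0.46) and -0.15 for Cxcl5 (-0.69 to 0.39). The upper ends of these intervals lie far below the rises in WT cells.

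Whether the 2 genotypes responded differently to rmCIRP was tested as an interaction. All 4 genes passed, where 14.3% of all genes tested had a lower response under the TLR4-/- label. The log2 difference in response was -4.15 ± 0.61 for Cxcl1 (adjusted p = 2.65e-05), -6.51 ± 0.27 for Cxcl2 (8.02e-14), -6.39 ± 0.39 for Cxcl3 (5.6e-11) and -3.15 ± 0.35 for Cxcl5 (5.17e-07). With rmCIRP, the mean level under the TLR4-/- label was 387 ± 51.5 (SD, n = 3) against 17345 ± 499 in WT for Cxcl1, 320 ± 42.7 against 14883 ± 766 for Cxcl2, 71.5 ± 8.25 against 6341 ± 229 for Cxcl3, and 628 ± 22.3 against 6892 ± 808 for Cxcl5. All 4 were lower than in WT with this treatment, as were 29.2% of all genes tested, with log2 differences from -3.45 for Cxcl5 to -6.46 for Cxcl3. The macrophage marker sums with rmCIRP were 333578 to 379121 under the TLR4-/- label against 79769 to 85058 in WT. The part of those cells in the chemokine differences was not tested.

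At rest, calls between the genotypes came at shares near those of all genes tested, so nothing particular to the 4 genes is read from them. With PBS, Cxcl1 was lower under the TLR4-/- label (log2 difference -1.33 ± 0.44, adjusted p = 0.0188) and Cxcl2 was higher (0.97 ± 0.21, adjusted p = 0.000773), so that 1 of the 4 fell where 24% of all genes tested were lower and 1 rose where 23.2% were higher. Every library labelled TLR4-/- lay below every WT library for Cxcl1 and above every WT library for Cxcl2, a separation that 51.7% of all genes tested had. Cxcl3 and Cxcl5 did not pass, with log2 differences of -0.07 (95% interval -0.67 to 0.53) and -0.30 (-0.82 to 0.23). With rmTGF-β1 the same opposite directions appeared in Cxcl1 (-2.19 ± 0.53) and Cxcl2 (0.67 ± 0.24), and Cxcl3 (-0.82 ± 0.32) and Cxcl5 (-1.54 ± 0.31) were lower too, beside 22.1% of all genes lower and 24.4% higher. Of these, the call for Cxcl3 was lost in 3 of 6 fits that left out 1 library (WT replicate 2, or TLR4-/- replicate 1 or 2, adjusted p up to 0.195) and that for Cxcl2 without TLR4-/- replicate 2 (0.113). Macrophage marker sums were higher under the TLR4-/- label, with a median log2 difference of 2.19 over those 13 genes with PBS. In the same libraries Cxcl2 was higher, Cxcl1 was lower, and Cxcl3 and Cxcl5 did not pass. The part of macrophages in these differences was not tested.

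The second question was whether rmTGF-β1, the main profibrotic cytokine, altered the chemokines. In WT cells given rmTGF-β1 alone none of the 4 passed the threshold, where 12.4% of all genes tested did. Cxcl1 had 637, 474 and 603 normalized counts and Cxcl5 had 613, 422 and 578, each below all 3 PBS libraries, while 29.7% of all genes tested had no overlap between these groups. Their log2 fold changes were -0.70 ± 0.41 (adjusted p = 0.348) and -0.68 ± 0.26 (adjusted p = 0.116). Cxcl2 had 132, 119 and 127 counts, with a log2 fold change of -0.48 ± 0.25 (0.267), and Cxcl3 had 75.6, 86.0 and 82.8, with -0.05 ± 0.28. When only the 6 libraries compared were fitted, the same sizes passed for Cxcl1 (edgeR adjusted p = 0.0174), Cxcl2 (0.0676) and Cxcl5 (0.017), with the spread estimated from those libraries alone.

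In cells labelled TLR4-/- all 4 genes were lower with rmTGF-β1 than with PBS, beside 11.7% of all genes tested. Cxcl5 had the largest log2 fold change, from 699 ± 192 (SD, n = 3) to 185 ± 30.5 counts, with single libraries at 150, 200 and 205. Its log2 fold change of -1.92 ± 0.30 (adjusted p = 0.000114) was the tenth lowest of all genes tested. Cxcl2 fell to 160, 233 and 207 counts, all below the PBS libraries as 33.8% of all genes tested lay apart in either direction (log2 fold change -0.78 ± 0.21, adjusted p = 0.0107). Cxcl1 fell to 81.4, 132 and 159 counts (-1.56 ± 0.57, adjusted p = 0.0598) and Cxcl3 to 31.2, 40.4 and 64.7 (-0.80 ± 0.33, adjusted p = 0.0976), where the highest library with rmTGF-β1 was just above the lowest with PBS. The calls for Cxcl1 and Cxcl3 were each lost in 4 of 6 fits that left out 1 library: both without PBS replicate 1 or rmTGF-β1 replicate 1 or 2, Cxcl1 without rmTGF-β1 replicate 3 and Cxcl3 without PBS replicate 3, with adjusted p up to 0.21 and 0.32. Although the 4 calls differ from those in WT cells, the difference in response between the genotypes did not pass for any of the 4, with 0.0861% of all genes past the threshold in that test. The log2 differences were -0.87 ± 0.71 for Cxcl1, -0.30 ± 0.32 for Cxcl2, -0.75 ± 0.43 for Cxcl3 and -1.24 ± 0.40 for Cxcl5 (adjusted p from 0.273 for Cxcl5 to 0.808 for Cxcl2).

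The third question was what the 2 agents did together in WT cells. With rmTGF-β1 present, rmCIRP again raised all 4 genes over rmTGF-β1 alone, beside 20.5% of all genes tested. Cxcl1 had 8834, 8651 and 9437 normalized counts with both agents (log2 fold change over rmTGF-β1 3.97 ± 0.41), and Cxcl2 had 12391, 11544 and 13373 (6.62 ± 0.19). Cxcl3 had 5707, 5860 and 6226 (6.18 ± 0.19) and Cxcl5 had 2788, 2752 and 3242 (2.44 ± 0.25). Adjusted p ranged from 2.84e-17 for Cxcl2 to 7.94e-08 for Cxcl1.

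Set against rmCIRP alone, 2 of the 4 passed the test. Cxcl5 fell to 0.424 of its level with rmCIRP (log2 fold change -1.24 ± 0.22, adjusted p = 0.000356) and Cxcl1 to 0.516 (-0.95 ± 0.34, adjusted p = 0.0632), beside 10.5% of all genes tested that were lower. For Cxcl1, Cxcl5 and also Cxcl2, the libraries with both agents were all below those with rmCIRP alone (36.4% of all genes tested had no overlap here). Cxcl2 and Cxcl3 did not pass, with log2 fold changes of -0.26 (95% interval -0.54 to 0.01, adjusted p = 0.202) and -0.10 (-0.36 to 0.16, adjusted p = 0.67). The call for Cxcl1 was near the threshold: it was lost whichever of the 6 libraries was left out (adjusted p 0.109 to 0.162, at log2 fold changes of -0.99 to -0.92) and with DESeq2 (0.235). Conversely, when only these 6 libraries were fitted, all 4 passed at the same sizes, with the spread estimated from those libraries alone. The edgeR adjusted p was then 3.72e-10 for Cxcl1, 3.45e-08 for Cxcl5, 0.000994 for Cxcl2 and 0.0673 for Cxcl3. None of the 4 passed the test of whether the effect of rmCIRP depended on rmTGF-β1, in which 0.0492% of all genes did. The log2 interaction was -0.26 ± 0.53 for Cxcl1, 0.21 ± 0.28 for Cxcl2, -0.05 ± 0.31 for Cxcl3 and -0.56 ± 0.34 for Cxcl5.

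In cells labelled TLR4-/- the comparison of both agents with rmTGF-β1 alone rested on 1 library. Cxcl1 had 166, 261 and 1334 normalized counts with both agents, Cxcl2 had 239, 232 and 478, Cxcl3 had 50.3, 75.6 and 170, and Cxcl5 had 230, 376 and 741. The third library was the highest in each of the 4 genes. With it, Cxcl1 (log2 fold change 2.21 ± 0.53, adjusted p = 0.0726), Cxcl3 (1.07 ± 0.31, 0.0954) and Cxcl5 (1.27 ± 0.32, 0.0732) were called higher, and Cxcl2 (0.65 ± 0.21, 0.122) was not, beside 1.56% of all genes tested. Without it no member passed. The log2 fold changes were then 0.79 for Cxcl1, 0.24 for Cxcl2, 0.46 for Cxcl3 and 0.72 for Cxcl5 (adjusted p 0.46 to 0.723), and the number of genes called in this comparison dropped from 437 to 1. The 3 calls were also lost without rmTGF-β1 replicate 1 or 2 (adjusted p 0.168 to 0.411) and when only the 6 libraries compared were fitted (0.679 for each).
Against rmCIRP alone under the same label, none of the 4 passed with the third library, where 32.8% of all genes did. Without it Cxcl1 (-0.85, adjusted p = 0.0294), Cxcl2 (-0.44, 0.0319) and Cxcl5 (-1.04, 0.00343) were lower and Cxcl3 was not past the threshold (-0.18, 0.633), beside 10.7% of all genes lower in that fit, so that the sign for Cxcl1 turned from 0.57 with that library. That library also had more neutrophil and endothelial marker reads than the other 2 of its condition (511 against 231 and 236, and 1436 against 768 and 906 normalized counts). Its macrophage marker sum was the highest of the 24 libraries, at 431866 against 377933 and 345203 in the other 2, and its fibroblast marker sum was 696437 against 828308 and 793431. The part of these in its chemokine level was not tested.
With both agents, all 4 genes were lower under the TLR4-/- label than in WT, beside 26% of all genes tested. The log2 differences were -3.95 ± 0.41 for Cxcl1, -5.30 ± 0.17 for Cxcl2, -5.92 ± 0.18 for Cxcl3 and -2.71 ± 0.25 for Cxcl5. Without the third library they were larger still, at -5.37, -5.71, -6.53 and -3.25.

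**Figure D2:**
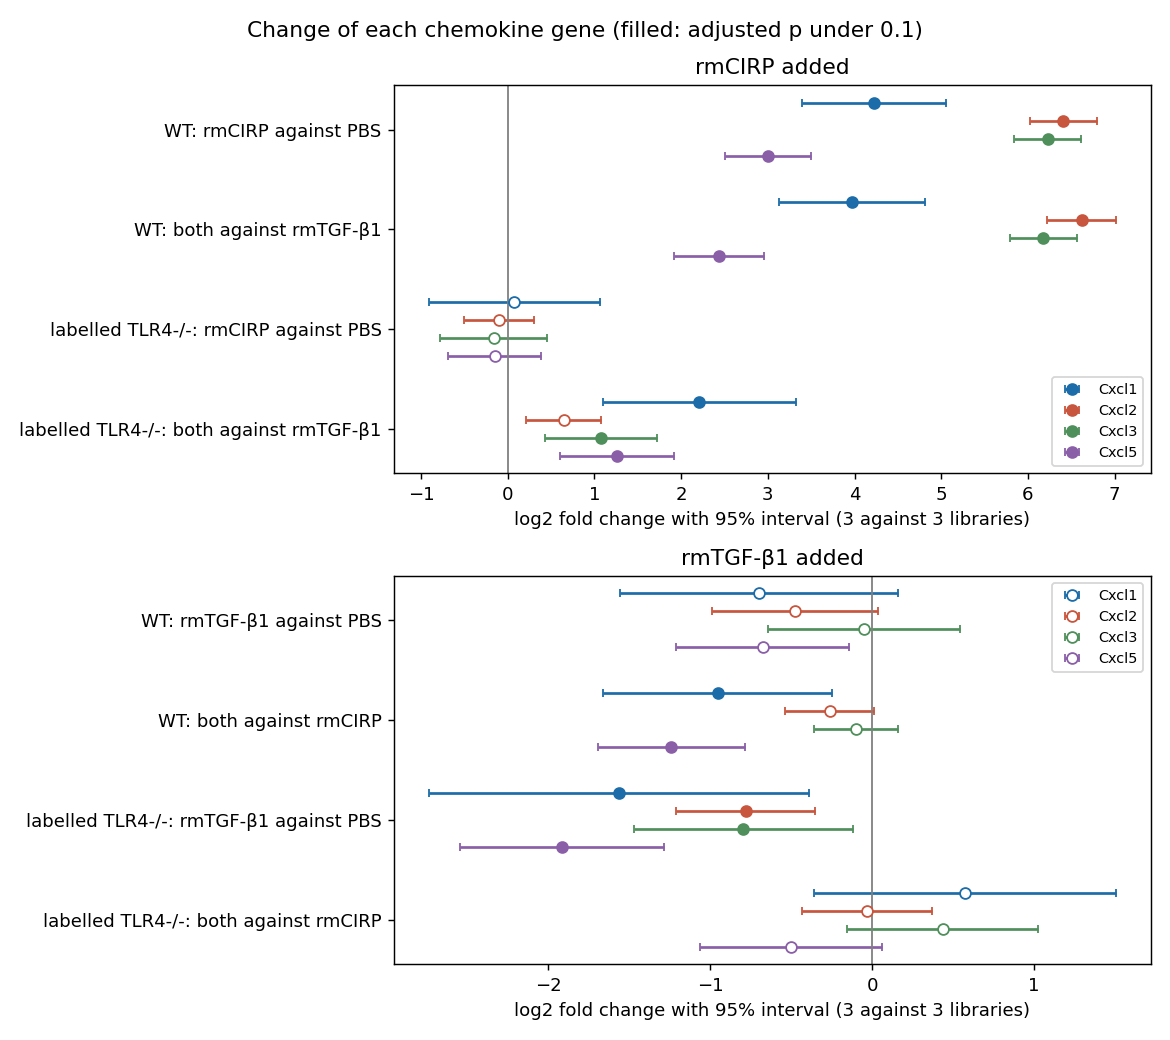
Log2 fold change with its 95% interval (horizontal axis) of each chemokine gene for each comparison (vertical axis) that added rmCIRP (upper panel) or rmTGF-β1 (lower panel), 3 libraries against 3, with filled points where the adjusted p was under 0.1. In WT cells the rmCIRP intervals lie above 1.92 on the log2 scale, and the rmTGF-β1 values are below 0 for the 4 genes.

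Because the 4 genes changed by different factors, the makeup of the family changed as well. To set levels of different genes side by side, normalized counts were divided by the length of the mRNA that GENCODE release M21 pairs with the RefSeq entry (953 bases for Cxcl1, 1109 for Cxcl2, 1016 for Cxcl3 and 1575 for Cxcl5). In WT cells with PBS the level per kilobase was 971 ± 289 (SD, n = 3) for Cxcl1, 545 ± 147 for Cxcl5, 158 ± 37.9 for Cxcl2 and 82.8 ± 7.29 for Cxcl3. The order was the same in all 3 libraries. With rmCIRP it was 18200 ± 524 for Cxcl1, 13421 ± 691 for Cxcl2, 6241 ± 226 for Cxcl3 and 4376 ± 513 for Cxcl5. Cxcl5 thus went from the second to the last place per kilobase.
As a share of the family's summed reads per kilobase, Cxcl5 in WT cells went from 31.0% ± 0.992 (PBS) to 10.4% ± 1.07 (rmCIRP). The share of Cxcl2 was 9.06% ± 0.891 with PBS, 31.8% ± 0.875 with rmCIRP and 39.6% ± 0.882 with both agents, where it was above the 33.3% ± 0.388 of Cxcl1. In cells labelled TLR4-/- with PBS the share of Cxcl2 was already 26.0% ± 3.93, near the 31.3% ± 2.71 of Cxcl1 and the 36.1% ± 1.73 of Cxcl5, and with rmCIRP it was 24.8% ± 2.79.
The ratio of Cxcl2 to Cxcl1 per kilobase rose in WT cells from 0.165 with PBS to 0.737 with rmCIRP and 1.19 with both agents, and was 0.841 and 0.720 under the TLR4-/- label with PBS and rmCIRP. The WT libraries with PBS, rmCIRP and both agents did not overlap in this ratio. For rmCIRP against PBS and for both agents against rmCIRP in WT cells the exact two-sided permutation test gave p = 0.1, the smallest that 3 libraries against 3 allow, and 0.189 after Benjamini-Hochberg adjustment over 36 such ratio tests. When all annotated exons were taken as the length, including transcripts that retain introns, the share of Cxcl3 with rmCIRP in WT cells was 8.26% in place of 14.8% and fell below that of Cxcl5, at 16.8%, so the order of these 2 genes depends on the length used.

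**Figure D3:**
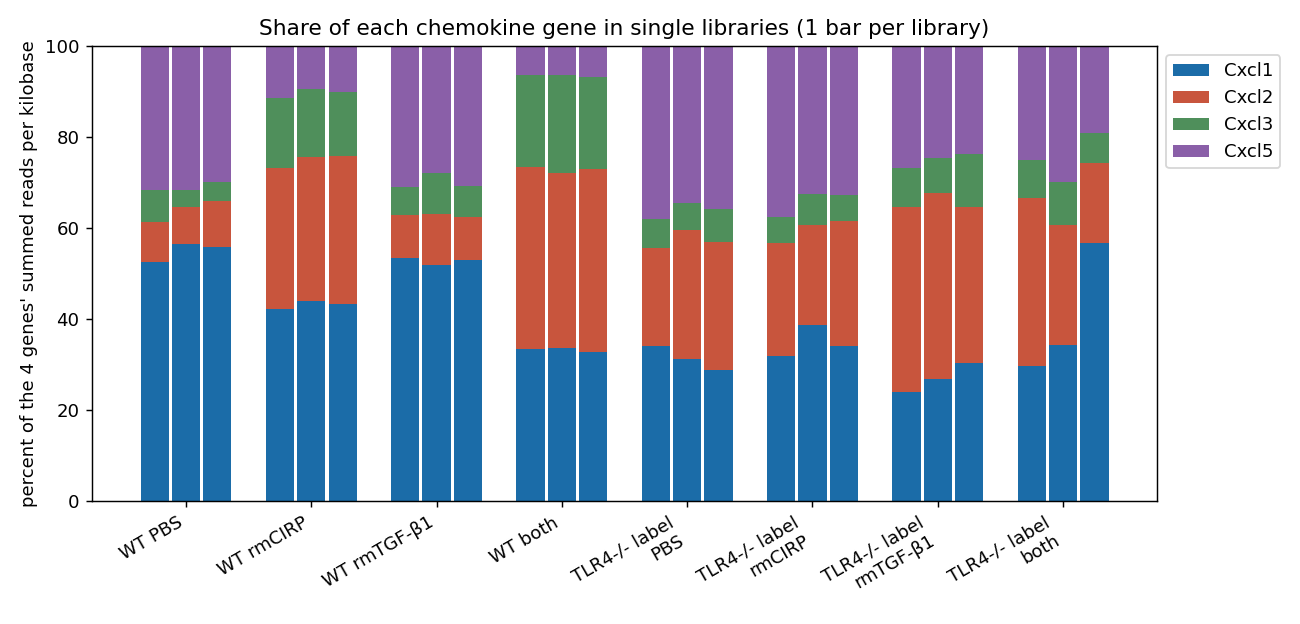
Share of each chemokine gene in the summed normalized reads per kilobase of the 4 genes (vertical axis, percent), with 1 bar for each of 24 libraries grouped by condition (horizontal axis). With rmCIRP or both agents in WT cells the Cxcl2 and Cxcl3 shares widen and the Cxcl5 share shrinks, and the third library labelled TLR4-/- with both agents has a Cxcl1 share of 56.7%, above the 29.7% and 34.4% of the other 2.

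The 4 genes followed each other across libraries. Over the 24 libraries Pearson's r of log2 CPM was highest between Cxcl2 and Cxcl3 (0.977) and between Cxcl1 and Cxcl5 (0.974), and lowest between Cxcl2 and Cxcl5 (0.885). Without the third library labelled TLR4-/- with both agents these were 0.977, 0.977 and 0.884. These are descriptions, since the libraries fall into conditions far apart in level. Within the 12 WT libraries r was 0.933 to 0.997, highest between Cxcl2 and Cxcl3. Within all 12 libraries labelled TLR4-/- it was 0.785 to 0.948, with Cxcl2 and Cxcl3 at 0.830. The search for like profiles covered 12307 genes whose mean was 50 normalized counts or more. Nearest to Cxcl2 were Acsl1 (0.995), Tnip1 (0.992) and Traf1 (0.990). Those most like Cxcl3 were Ccl5 (0.991), Nfkb2 (0.990) and Nfkbia (0.988). Among those most like Cxcl1 were Kcnq5 (0.988) and Ccl2 (0.977), and among those most like Cxcl5 were Cd47 (0.984) and Egln3 (0.981). Ccl2 and Ccl5 encode chemokines for monocytes and T cells, and Tnip1, Traf1, Nfkb2 and Nfkbia encode proteins of the NF-κB pathway. Without that library the named genes had r of 0.978 to 0.996 with their member and ranked between 1 and 6.

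The other genes of the pathway were described through 6 lists of 35 genes in all, of which 28 were tested. In WT cells 22 of the 28 rose with rmCIRP, 1 fell and 5 did not pass, beside 19.8% of all genes tested that rose and 24.1% that fell, with a median log2 fold change of 0.73 beside -0.02 over all genes tested. Under the TLR4-/- label none of the 28 passed, with a median of -0.02. The response was lower under that label in 21 of the 28 and higher in 1, beside 14.3% and 17.1% of all genes tested.

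Of the other genes in the cluster, Pf4 (platelet factor 4, which lacks the ELR motif) rose with rmCIRP in WT cells from 313 ± 7.23 to 546 ± 24.1 normalized counts, with a log2 fold change of 0.79 ± 0.097. It was also higher under the TLR4-/- label with PBS, at 1278 ± 95.6, where the macrophage markers were higher too. Ppbp, the platelet ELR chemokine, had 8 to 18 reads in each WT library with PBS or rmCIRP and did not pass (log2 fold change 0.07 ± 0.36), although it lies between Cxcl5 and Pf4. With both agents it was higher, at 23.5 ± 3.91 normalized counts (SD, n = 3) against 8.85 ± 1.10 with rmTGF-β1 (log2 fold change 1.40 ± 0.34, adjusted p = 0.00242) and 12.5 ± 4.76 with rmCIRP (0.89 ± 0.32, adjusted p = 0.0638). Pf4 was also higher with both agents than with rmTGF-β1 (0.64 ± 0.097) and did not pass against rmCIRP alone. Cxcl15 (lungkine, an ELR chemokine of lung epithelium) had 7 reads at most in a library and was not tested. The receptors Cxcr1 and Cxcr2 and the scavenging receptor Ackr1 had 10 reads at most in any library, so that a change in them was not detectable at this depth.

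Of 12 regulators of ELR chemokine transcription and mRNA decay, 8 rose with rmCIRP in WT cells, where 19.8% of all genes did, and 4 did not pass. Nfkb1 (an NF-κB subunit) rose by a log2 fold change of 1.45 ± 0.15, Cebpd by 1.35 ± 0.12 and Cebpb by 0.86 ± 0.15, both of which encode C/EBP transcription factors. Zc3h12a (Regnase-1, an RNase that degrades inflammatory mRNAs) rose by 1.21 ± 0.11. Il17ra and Il17rc, the 2 chains of the interleukin-17 receptor, were among those that did not pass (0.10 ± 0.057 and 0.00 ± 0.061). The genotype difference in the response to rmCIRP passed for 8 of the 12, all lower (14.3% of all genes), at -1.45 ± 0.21 for Nfkb1 and -1.64 ± 0.16 for Cebpd.

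All 6 neutrophil growth factors and vascular adhesion genes rose with rmCIRP in WT cells, beside 19.8% of all genes tested, with a median log2 fold change of 2.14. Csf3, which encodes G-CSF, the growth factor that releases neutrophils from bone marrow, went from 79.3 ± 8.32 to 1096 ± 61.9 normalized counts (log2 fold change 3.78 ± 0.12). Csf2, which encodes GM-CSF, had 2 to 4 reads in each WT library with PBS and 141 to 170 with rmCIRP. The selectins Selp and Sele, adhesion molecules that slow neutrophils on the vessel wall, rose by 2.26 ± 0.11 and 2.02 ± 0.25. All 6 were lower with both agents than with rmCIRP alone, beside 10.5% of all genes tested: Csf3 by -0.64 ± 0.091, Selp by -1.01 ± 0.10 and Sele by -1.42 ± 0.24. For the genotype difference in the rmCIRP response 5 of the 6 passed, all lower, beside 14.3% of all genes tested. Csf3 was at -4.13 ± 0.24. Csf2 did not pass, with 3 reads at most in the libraries labelled TLR4-/- that this difference rests on.

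Of 6 proteases known to cleave ELR chemokines, the 3 of neutrophil granules (Elane, Ctsg and Prtn3) were too low to be tested and the 3 matrix metalloproteinases rose with rmCIRP in WT cells, Mmp9 by 1.09 ± 0.097, Mmp8 by 0.95 ± 0.071 and Mmp12 by 0.34 ± 0.070. With both agents against rmCIRP alone, Mmp9 rose further (0.71 ± 0.093) and Mmp8 fell (-0.64 ± 0.070). Of the 5 proteoglycans that hold chemokines at the cell surface, 4 rose with rmCIRP in WT cells, Gpc1 the most (0.71 ± 0.12), and Sdc2 fell by 0.38 on the log2 scale. The counts for rmCIRP against PBS in these lists stand beside 19.8% of all genes tested that rose and 24.1% that fell.

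**Figure D4:**
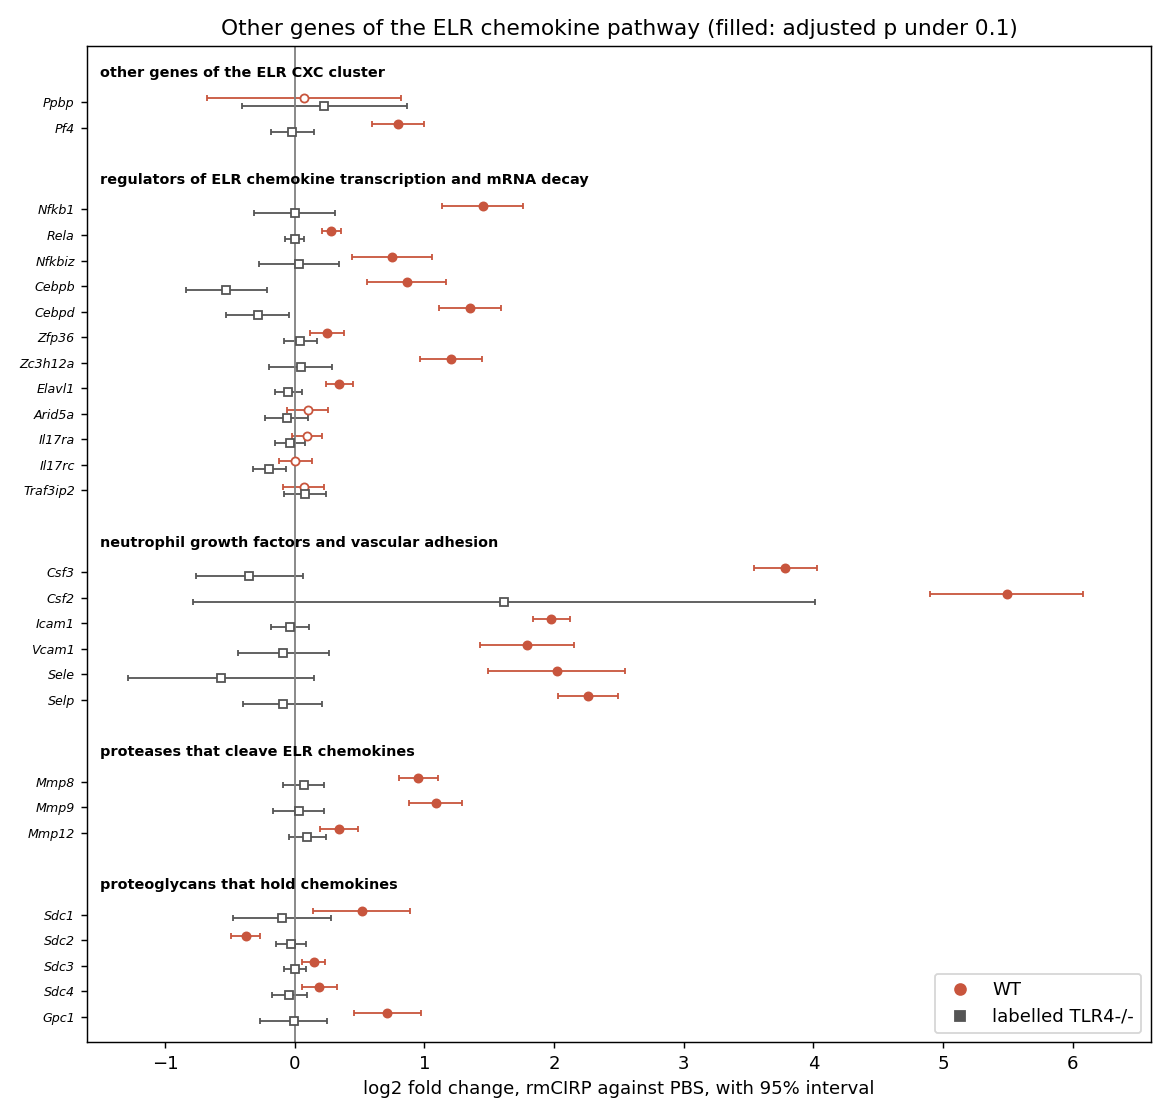
Log2 fold change of rmCIRP against PBS with its 95% interval (horizontal axis) for the 28 tested genes of 5 pathway lists (vertical axis), in WT cells (circles) and cells labelled TLR4-/- (squares), 3 libraries against 3, filled where the adjusted p was under 0.1. The circles of Csf2, Csf3, Selp and Sele lie furthest to the right, Sdc2 is the filled circle left of 0, and no square is filled.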

How the data were processed

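The 24 libraries (total RNA, stranded kit) were aligned by the authors with STAR2 to a mouse GENCODE reference and counted with ht-seq, and the deposited files hold raw counts of reads per gene symbol. The submitters' notes name FastQC and the build NCBIM37. Not given in the sources used here are tool versions, the GENCODE release and how the counting treated strand. Reads on genes ranged from 29853346 to 39664606 per library. The 5 tally lines (14.5% to 16.1% beside the reads on genes) were left out. Reads matching several places, 6.07% to 6.82%, were not counted, which can lower close relatives such as Cxcl1, Cxcl2 and Cxcl3.

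Tests used edgeR 4.0.16 in R 4.3.3: filterByExpr (16258 of 34285 genes with a count), TMM, 1 quasi-likelihood fit over 24 libraries, and Benjamini-Hochberg adjustment over all genes in each of 15 comparisons, with a threshold of 0.1. The common biological coefficient of variation was 0.0571. The fit was also run on simulated data with the same biological coefficient of variation for all genes, and nothing about the chemokines is drawn from that run. Levels are counts divided by DESeq2 1.42.0 size factors. The exact permutation tests are two-sided. Replicate numbers did not pair libraries: 4 of 84 same-numbered pairs correlated above 0.1 (mean 0.012), so no block was used. Promoters are RefSeq, GRCm38.p6, and no coordinates were joined to the counts. The alternatives were DESeq2, RLE scaling, no filter, a mean count of at least 10, the block, fits of only the libraries compared, and leaving out in turn each library of the conditions compared. Exon length, and gene counts and correlations without 1 library, were added after the data were seen.

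Named genes were the 4 members, the pathway genes past the threshold in WT with rmCIRP (at most 4 per list, by size of change, with those that did not pass named as such), the 3 genes most like each member (1 gene is not reported here), and Tlr4. Cell type markers lie outside this rule, and the neutrophil and macrophage markers given by value with rmCIRP in WT cells were those that rose. Other genes outside this rule are said to be so. The members and lists were chosen with earlier results of these data known.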

Additional observations from a re-analysis of the deposited data

Results flagged for a closer look

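The response to rmCIRP differed between the genotypes in a direct test for all 4 chemokine genes. The log2 difference in response (TLR4-/- label minus WT) was -4.15 for Cxcl1, -6.51 for Cxcl2, -6.39 for Cxcl3 and -3.15 for Cxcl5, with edgeR adjusted p of 2.65e-05, 8.02e-14, 5.6e-11 and 5.17e-07. In WT cells 3 of 3 rmCIRP libraries were above all PBS libraries for each gene, whereas under the TLR4-/- label the 2 treatments overlapped. Leaving out any 1 of the 12 libraries kept each difference past the threshold.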

How the results depend on the processing

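The 60 values of the 4 chemokines over 15 comparisons kept their direction and side of the threshold in 335 of 360 fits that changed 1 setting and in 383 of 432 fits that left out 1 library. The 4 rises with rmCIRP in WT cells, alone or with rmTGF-β1, and the 4 genotype differences in that response kept theirs in all of them. The cause of the changes below was not tested unless given. With DESeq2, Cxcl1 with both agents against rmCIRP in WT cells (-0.95) was no longer called, and Cxcl2 under the TLR4-/- label with both against rmTGF-β1 (0.66) was. With the replicate block, the last value (0.64) was called too and no other chemokine call changed.

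With no filter on low counts, 14 further values were called: with rmTGF-β1 against PBS in WT cells Cxcl1 (-0.68), Cxcl2 (-0.46) and Cxcl5 (-0.66), with both against rmCIRP in WT cells Cxcl2 (-0.25), the interaction in WT cells of Cxcl1 (-0.27) and Cxcl5 (-0.57), under the TLR4-/- label with both against rmTGF-β1 Cxcl2 (0.65) and with both against rmCIRP Cxcl1 (0.56), Cxcl3 (0.42) and Cxcl5 (-0.51), the genotype difference with PBS of Cxcl5 (-0.29), and the genotype difference in the rmTGF-β1 response of Cxcl1 (-0.90), Cxcl3 (-0.78) and Cxcl5 (-1.28). The edgeR adjusted p of that last Cxcl5 value was 2.85e-35 without the filter and 0.273 with it, at nearly the same size. Nothing was drawn from the calls made without the filter. With only the libraries compared, Cxcl1 (-0.68), Cxcl2 (-0.46) and Cxcl5 (-0.66) with rmTGF-β1 and Cxcl2 (-0.26) and Cxcl3 (-0.10) with both against rmCIRP in WT cells were called, and Cxcl1 (2.23), Cxcl3 (1.09) and Cxcl5 (1.27) under the TLR4-/- label with both against rmTGF-β1 were not.

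Leaving out 1 library at a time changed a call or sign for the following, given as the lowest and highest log2 value. In WT cells these were Cxcl1 with both against rmCIRP (-0.99 to -0.92), and with rmTGF-β1 against PBS Cxcl5 (-0.84 to -0.45, called without PBS replicate 1) and Cxcl3 (-0.12 to 0.022). Signs of values near 0 also turned for the interaction of Cxcl3 (-0.11 to 0.015), the genotype difference of Cxcl3 with PBS (-0.26 to 0.057), and rmCIRP against PBS under the TLR4-/- label for Cxcl1 (-0.087 to 0.36), Cxcl3 (-0.30 to 0.031) and Cxcl5 (-0.27 to 0.10). The genotype difference with rmTGF-β1 was 0.55 to 0.81 for Cxcl2 and -1.19 to -0.60 for Cxcl3. Under the TLR4-/- label, rmTGF-β1 against PBS gave -1.80 to -1.28 for Cxcl1 and -1.17 to -0.58 for Cxcl3. Both against rmTGF-β1 gave 0.79 to 2.65 for Cxcl1, 0.24 to 0.83 for Cxcl2 (called without rmTGF-β1 replicate 3 or replicate 1 or 2 with both agents), 0.46 to 1.44 for Cxcl3 and 0.72 to 1.58 for Cxcl5. Both against rmCIRP gave -0.85 to 1.01 for Cxcl1, -0.44 to 0.15 for Cxcl2, -0.18 to 0.74 for Cxcl3 and -1.04 to -0.19 for Cxcl5, and Cxcl1 and Cxcl3 were called higher without replicate 1 with both agents.

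The number of all genes called moved by over 1.5 times in 5 comparisons. For the WT interaction it was 8, and 37 with DESeq2, 198 with no filter and 125 with only the libraries compared. For rmCIRP against PBS under the TLR4-/- label it was 0, and 33, 149 and 29 with these settings and 1 with the replicate block. For both against rmTGF-β1 under that label it was 437, and 902, 1580 and 0 with these settings, 810 with the block and 1 without the third library with both agents. For both against rmCIRP it was 5329, and 2710 with only the libraries compared. For the genotype difference in the rmTGF-β1 response it was 14, and 163 with DESeq2, 563 with no filter, 23 with a mean count of at least 10 and 22 with the block. The lowest chemokine count in any library was 33 reads, for Cxcl3.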
